A study of Mus musculus with 6 samples.

Results

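The deposited transcript table lists transcripts of mouse chromosome 1 only, so shares of all transcripts and p-value adjustments below cover that chromosome alone. Of its 10537 transcripts 612, or 5.81%, were assembled transcripts with 2 or more exons. They were chosen by name and structure alone: the transcript name begins with MSTRG and the table lists at least 2 exons. The other transcripts of the table were 3813 Ensembl transcripts and 6112 assembled transcripts with a single exon. StringTie joins aligned reads into transcript models, and a model that matches no annotated transcript keeps a name of that kind. Such a model with several exons can stand for an alternative start, a skipped exon, a kept intron or a gene that the annotation lacks, and it is only as certain as the reads that cross its splice junctions. Dexamethasone is a synthetic glucocorticoid that acts through a nuclear receptor, and long exposure to glucocorticoids is known for loss of bone through its effects on osteoblasts.

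RNA came from MC3T3-E1 Subclone 14 cells, a mouse calvarial line used as an osteoblast model, grown for 72 hours in 3 groups of 2 libraries each. Control cells received 100 µL of PBS, dexamethasone cells received 10 µM dexamethasone, and dexamethasone + EPC-EVs cells received 10 µM dexamethasone with 100 µg of extracellular vesicles from endothelial progenitor cells. All cells are of 1 clonal line, and the study calls the replicates biological without saying whether they were separate cultures, so the p-values measure only the spread between these samples. Levels are in FPKM, fragment counts that the authors scaled to transcript length and library size, and values for a group are those of its replicate 1 and replicate 2. The design text of the series gives another treatment time and cell type than the sample labels and the methods of the study, which were followed here. In bulk RNA, fewer cells with a transcript and less of it per cell cannot be told apart.

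Total gene counts were 6126888 and 5146760 in control, 6583735 and 6575094 under dexamethasone and 12864009 and 13182014 under dexamethasone + EPC-EVs. Mitochondrial genes took 7.46% and 8.62% of the counts in control, 5.55% and 5.78% under dexamethasone and 0.465% and 0.727% under dexamethasone + EPC-EVs. The libraries with EPC-EVs therefore stood apart, with the highest totals and the lowest mitochondrial share. The median of log2(FPKM + 1) over the 4799 transcripts tested was 1.64 and 1.76 in control, 1.60 and 1.67 under dexamethasone and 0.9966 and 0.9974 under dexamethasone + EPC-EVs. The part of depth and mitochondrial share in the results was not tested, results with the medians shifted are given below, and treatment and library cannot be told apart.

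Gene counts of markers were scaled to the library total (CPM). All 10 osteoblast lineage markers were in the gene table, with a summed level of 16106 and 17202 CPM in control, 18088 and 18392 under dexamethasone and 28823 and 22627 under dexamethasone + EPC-EVs. Spp1, a phosphoprotein of bone matrix, was the most abundant in control and dexamethasone, and Col1a2, a chain of type I collagen, was the most abundant with EPC-EVs, at 11446 and 9037 CPM. The rise of the sum with EPC-EVs came mainly from Col1a1, Col1a2 and Sparc. Spp1 went the other way, from 11156 and 10917 CPM under dexamethasone to 5991 and 4257 with EPC-EVs, as did Dmp1, from 348 and 360.0 to 135.8 and 25.2. Alpl, Bglap and Ibsp, markers of mature osteoblasts, stood at 3.11, 6.45 and 2.33 CPM or lower in every library. Of 8 endothelial and endothelial progenitor markers 7 were in the table, summing to 419.6 and 374 CPM in control, 378 and 387 under dexamethasone and 287 and 235.5 under dexamethasone + EPC-EVs. Nearly all of that sum was Cd34. The other markers Cdh5, Tek, Prom1, Pecam1, Vwf and Eng reached at most 0.152, 1.55, 0.389, 1.59, 4.57 and 4.275 CPM. For blood cells 2 of 4 markers were present, with sums of 10.1 and 11.5 CPM in control, 14.7 and 17.8 under dexamethasone and 14.3 and 16.6 under dexamethasone + EPC-EVs, mostly Lyz2. The 4 fibroblast markers, shared with osteoblasts and led by Col3a1, summed to 1268 and 998 CPM in control, 1407 and 1391 under dexamethasone and 2077 and 1785 under dexamethasone + EPC-EVs. Col3a1 and Pdgfra were highest in both libraries with EPC-EVs. Thy1 went the other way, from 182.3 and 203.2 CPM under dexamethasone to 115.3 and 89.29 with EPC-EVs. S100a4 stood at 0.7604 CPM or lower in every library.

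The 612 transcripts had a median of 7 exons, from 2 to 97, and a median length of 2022 bases, from 214 to 22642. The 3132 Ensembl transcripts with 2 or more exons had a median of 5 exons and 1508 bases. Among the assembled transcripts 158 had 2 exons, 229 had 3 to 9 and 225 had 10 or more. By strand, 273 were on the plus strand and 339 on the minus strand. A gene name was given for 592 of them, from 297 genes, and 577 shared the gene name with 1705 Ensembl transcripts of 283 genes. Most belonged to known protein-coding genes: of the 590 whose gene name is in GENCODE vM21, 534 were in a protein-coding gene. On the strand opposite to the annotated gene of their name 38 were listed. A single assembled transcript was found for 163 genes, and 22 genes had 5 or more. Dst, which encodes the cytoskeletal linker dystonin, had the most at 13, followed by Trip12, a ubiquitin ligase, with 10. Eya1 and Map4k4 had 9 each, Prrx1 had 8, and C130026I21Rik, Ptgs2 and Sned1 had 7 each. Fn1 and Gm6264 were among the genes with 6 each.

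The ends of the assembled transcripts were set beside the annotated transcript ends of chromosome 1 on the same strand. The 5′ end fell exactly on an annotated 5′ end in 219 and within 50 bases of one in 293. The 3′ end fell exactly on an annotated 3′ end in 177 and within 50 bases of one in 206. Both ends were exact in 86 and within 50 bases in 129, and neither end came within 50 bases in 242. Within the bounds of the annotated gene lay 483, while 37 started more than 1000 bases before it and 54 ended more than 1000 bases past it.

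A value above 0 was listed for 456 and 422 of the 612 in control, 466 and 474 under dexamethasone and 505 and 498 under dexamethasone + EPC-EVs. With a minimum of 1 FPKM the order turned: 330 and 315 in control, 331 and 357 under dexamethasone and 311 and 291 under dexamethasone + EPC-EVs, the group with the deepest libraries. All 6 libraries had a value above 0 for 259 of them, or 42.3%, beside 1477 of the Ensembl transcripts, or 38.7%. None of the 612 was at 0 in all 6. Values above 0 in both libraries of a single group and 0 in the other 4 were found for 8 transcripts in control, 2 under dexamethasone and 15 under dexamethasone + EPC-EVs, or 1.31%, 0.327% and 2.45%, beside 1.14%, 1.47% and 3.15% of all 10537 transcripts and 0.21%, 0.577% and 4.01% of the Ensembl ones. The opposite pattern, 0 in both libraries of a group and above 0 in the other 4, was found for 18 in control, 5 under dexamethasone and 8 under dexamethasone + EPC-EVs, or 2.94%, 0.817% and 1.31%, beside 2.23%, 0.721% and 1.89% of all and 2.81%, 0.629% and 0.289% of the Ensembl ones.

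Summed over the 612, levels were 9239 and 12060 FPKM in control, 6905 and 6832 under dexamethasone and 4078 and 3030 under dexamethasone + EPC-EVs, which is 18.8% and 24.8%, 16.1% and 16.0%, and 20.6% and 15.0% of the FPKM of the whole table. Control libraries had the highest sums and those with EPC-EVs the lowest, with no overlap between groups. Much of the sum lay in 4 transcripts of Gm10222, Gm10925 and Gm28439, pseudogenes described further on, which held 57.8% and 77.4% of it in control, 43.3% and 41.1% under dexamethasone and 4.81% and 11.04% under dexamethasone + EPC-EVs. Without them, a choice made after seeing the data, the sums were 3896 and 2723 FPKM in control, 3919 and 4028 under dexamethasone and 3882 and 2696 under dexamethasone + EPC-EVs. Control and dexamethasone + EPC-EVs then overlapped, and both dexamethasone libraries lay above the other 4, though close to replicate 1 of both other groups.

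Within genes, the share of assembled multi-exon transcripts was taken in each library as their part of the summed FPKM of these and the Ensembl transcripts. Single-exon assembled transcripts were left out of that sum, so the shares can be larger than shares of all FPKM of a gene. Genes that also have Ensembl transcripts and a sum of at least 1 FPKM were used. The median share was 24.9% and 29.0% in control, 21.3% and 26.2% under dexamethasone and 22.2% and 19.1% under dexamethasone + EPC-EVs. Assembled multi-exon transcripts held more than 50% of that sum in 84 of 271 and 95 of 270 genes in control. The numbers were 75 of 271 and 83 of 275 under dexamethasone and 60 of 269 and 57 of 265 under dexamethasone + EPC-EVs. The libraries with EPC-EVs had the fewest such genes.

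A mean of at least 1 FPKM over the 6 libraries, the filter for testing, was reached by 459 of the 612, beside 1271 Ensembl and 3069 single-exon assembled transcripts. The other 153 were described by their values only. Replicates of a group often differed: a gap of more than 1 on the log2(FPKM + 1) scale was found for 208 of the 459, or 45.3%, in control, 165, or 36.0%, under dexamethasone and 103, or 22.4%, under dexamethasone + EPC-EVs. For the Ensembl transcripts these shares were 31.6%, 25.3% and 14.9%, and for assembled transcripts with a single exon 46.3%, 36.3% and 13%. A value of 0 in 1 of the 2 libraries was seen for 112 of the 459 in control, 84 under dexamethasone and 68 under dexamethasone + EPC-EVs. Log2 differences below are on this scale, which understates changes of transcripts at low levels.

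The first comparison asks what dexamethasone changed in these cells. Of the 459 transcripts tested, limma called 2, or 0.436%, at an adjusted p under 0.05, and both rose, beside 3 of all 4799 tested, or 0.0625%. They belong to Map4k4, a kinase of the Ste20 family that acts upstream of JNK signalling, and to Ncl, which encodes nucleolin, an RNA-binding protein of ribosome assembly in the nucleolus. An unadjusted p under 0.05 was reached by 39, or 8.50%, beside 6.73% of all tested. The looser threshold used below, an unadjusted p under 0.05 with a log2 difference beyond 1, was passed by 25 with higher and 13 with lower values, or 5.45% and 2.83%, beside 3.38% and 3.02% of all tested. Both dexamethasone libraries were above both control libraries for 87, or 19.0%, and below for 64, or 13.9%, where the shares of all tested were 17.5% and 17.5%. The median difference of the 459 was 0.034, with 234 higher and 217 lower, beside -0.023 over all 4799 and 0.17 over the Ensembl transcripts. By exon number the medians were -0.16 for 2 exons, 0.081 for 3 to 9 and 0.14 for 10 or more. Without control replicate 1 the count past that looser threshold was 77 in place of 38, with 40 higher and 37 lower, and without control replicate 2 it was 25 higher and 31 lower, so that more were lower than higher; without dexamethasone replicate 1 it was 45 and 9, and without replicate 2 it was 35 and 14. Without any 1 of the 4 libraries in turn, control replicate 1, control replicate 2, dexamethasone replicate 1 or dexamethasone replicate 2, the number called was 0. It was also 0 with a pseudocount of 0.1, without the filter and with the replicate number as a block. With a mean of at least 5 FPKM both stayed called, among 4 of 88, or 4.55%, beside 10 of all 593, or 1.69%.

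MSTRG.1757.20 of Map4k4 (chr1:40000677-40024425, plus strand, 16 exons, 2020 bases) was at 0 and 0 FPKM in control, 61.0 and 69.4 under dexamethasone and 26.0 and 56.5 under dexamethasone + EPC-EVs. It was listed at 0 in both control libraries and was high in both with dexamethasone and in both with EPC-EVs, where the value of replicate 1 lay lower. The difference between dexamethasone and control was 6.05 ± 0.304 (moderated SE, n = 2 and 2) on the log2(FPKM + 1) scale. Its adjusted p in limma was 0.0406. A moderated SE draws on the spread of all transcripts tested and is not the spread of these replicates alone. Against a group at 0 the difference is not a fold. A transcript of the same start and end with 1 exon more, MSTRG.1757.19, was at 75.4 and 92.6 FPKM in control, 30.4 and 22.5 under dexamethasone and 14.1 and 24.3 under dexamethasone + EPC-EVs. It was highest in control, and the control libraries lay above the other 4. The Ensembl transcript ENSMUST00000191761.5, which ends upstream of the start of these 2, was at 76.2 and 72.9 FPKM in control and at 0.0405 FPKM or lower in the other 4 libraries, and was the only other transcript of the table called by limma, with an adjusted p of 0.0406. Its difference was -6.19, so this annotated form fell while an assembled form of the same gene rose. Other annotated forms that limma did not call also had higher values. ENSMUST00000192509.5 was at 0 and 0 FPKM in control, 16.9 and 12.7 under dexamethasone and 7.48 and 5.63 under dexamethasone + EPC-EVs. ENSMUST00000195860.5 was at 0.400 and 0 FPKM in control, 11.2 and 11.3 under dexamethasone and 1.35 and 1.37 under dexamethasone + EPC-EVs. Both were near 0 in control and highest under dexamethasone, with adjusted p of 0.343 and 0.571 in limma. Gene counts of Map4k4 were 545 and 665 CPM in control, 586 and 615 under dexamethasone and 352 and 444 under dexamethasone + EPC-EVs, with the dexamethasone libraries between the control libraries.

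Another of the 9 Map4k4 transcripts, MSTRG.1757.3, was at 10.7 and 26.1 FPKM in control, 0.0102 and 6.12 under dexamethasone and 0.344 and 0.0339 under dexamethasone + EPC-EVs. Both control libraries were above all others, and it was not called. MSTRG.1757.13, with 4 exons, was at 0 and 0 FPKM in control, 2.77 and 15.0 under dexamethasone and 2.20 and 0.0438 under dexamethasone + EPC-EVs. It was listed at 0 in control and was uneven between replicates in both other groups.

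MSTRG.5012.4 of Ncl (chr1:86350564-86359364, minus strand, 13 exons, 2419 bases) was at 0 and 0 FPKM in control, 50.6 and 58.3 under dexamethasone and 0.0283 and 4.42 under dexamethasone + EPC-EVs. Only the dexamethasone libraries were high. Here too control was listed at 0. The difference was 5.79 ± 0.317 (moderated SE, n = 2 and 2) on the log2(FPKM + 1) scale, and the adjusted p in limma was 0.0406. MSTRG.5012.5, also with 13 exons, was at 17.8 and 0 FPKM in control, 38.8 and 37.9 under dexamethasone and 0 and 2.03 under dexamethasone + EPC-EVs. Replicate 1 of control shared part of that level, and both libraries with EPC-EVs were near 0. MSTRG.5012.6, with 14 exons, was at 54.8 and 121 FPKM in control, 26.4 and 14.3 under dexamethasone and 1.60 and 1.54 under dexamethasone + EPC-EVs. Its order was control, dexamethasone, dexamethasone + EPC-EVs with no overlap, and its Ensembl transcripts together were at 61.1 and 36.7 FPKM in control, 22.8 and 19.6 under dexamethasone and 9.79 and 8.86 under dexamethasone + EPC-EVs, in the same order. Gene counts of Ncl were 789 and 828 CPM in control, 636 and 605 under dexamethasone and 99.4 and 113 under dexamethasone + EPC-EVs, also in that order.

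Next in size among the higher values, none of them called, were transcripts of 4 other genes. MSTRG.4442.3 of Ptprn, a phosphatase-like receptor of secretory granules, was at 0 and 0 FPKM in control, 35.0 and 34.5 under dexamethasone and 18.6 and 0 under dexamethasone + EPC-EVs. Only the dexamethasone libraries were both high, and the 2 libraries with EPC-EVs spanned from 0 to a level above control. The Ensembl transcripts of Ptprn together were at 18.1 and 11.6 FPKM in control, 5.02 and 0.691 under dexamethasone and 14.2 and 17.3 under dexamethasone + EPC-EVs, lowest under dexamethasone, while its gene counts were 164 and 93.8 CPM in control, 182 and 183 under dexamethasone and 166 and 159 under dexamethasone + EPC-EVs. The gene as a whole therefore did not show the low dexamethasone level of its annotated transcripts. MSTRG.3184.1 of Raph1, or lamellipodin, which guides actin assembly at the leading edge, was at 0 and 0.0425 FPKM in control, 17.7 and 15.5 under dexamethasone and 0 and 1.69 under dexamethasone + EPC-EVs. MSTRG.10084.2 of Suco, an ossification factor of the endoplasmic reticulum, was at 0 and 0 FPKM in control, 9.27 and 6.26 under dexamethasone and 0 and 0 under dexamethasone + EPC-EVs. MSTRG.2777.5 of Casp8, the initiator caspase of death receptors, was at 2.54 and 0 FPKM in control, 12.6 and 11 under dexamethasone and 0 and 0.0364 under dexamethasone + EPC-EVs. All 3 were high in both dexamethasone libraries and at 1.69 FPKM or lower in both libraries with EPC-EVs, and control reached above 1 FPKM only for Casp8, in replicate 1. Gene counts of Raph1 were 246 and 301 CPM in control, 217 and 200 under dexamethasone and 64.8 and 66.2 under dexamethasone + EPC-EVs. Those of Suco were 85.8 and 93.8 CPM in control, 93.6 and 82.7 under dexamethasone and 55.3 and 58.1 under dexamethasone + EPC-EVs. For Casp8 they were 50.4 and 32.5 CPM in control, 39.5 and 31.0 under dexamethasone and 24.5 and 20.1 under dexamethasone + EPC-EVs. In none of these 3 genes did both dexamethasone libraries lie above both control libraries at the gene level.

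Lower values under dexamethasone, again not called, were largest for MSTRG.979.1 of Gm10925, treated with the pseudogenes below. MSTRG.5649.4 of Lrrfip1, a nucleic acid-binding protein of innate immunity, was at 8.02 and 20.1 FPKM in control, 0 and 0 under dexamethasone and 0 and 0 under dexamethasone + EPC-EVs. It was listed above 0 in control and at 0 in the other 4 libraries. MSTRG.1523.5 of Tmem131, a membrane protein that takes part in collagen secretion, was at 9.34 and 12.3 FPKM in control, 0.769 and 0 under dexamethasone and 0 and 11.6 under dexamethasone + EPC-EVs. MSTRG.8688.5 of Aspm, a spindle pole protein, was at 5.36 and 7.81 FPKM in control, 0 and 0.0561 under dexamethasone and 0.0159 and 0 under dexamethasone + EPC-EVs. MSTRG.1708.4 of Eif5b, a translation initiation factor that joins the ribosomal subunits, was at 13.4 and 4.84 FPKM in control, 0.0882 and 0.496 under dexamethasone and 0.406 and 1.10 under dexamethasone + EPC-EVs. In these 3 both control libraries were above both dexamethasone libraries, and of the libraries with EPC-EVs only replicate 2 for Tmem131 came up to the control level. MSTRG.8003.5 of Rbbp5, a subunit of histone H3 methyltransferase complexes, was at 4.08 and 7.86 FPKM in control, 0 and 0 under dexamethasone and 2.099 and 2.36 under dexamethasone + EPC-EVs. MSTRG.10261.15 of Prrx1, a homeobox factor of limb and skull mesenchyme, was at 24.2 and 26.1 FPKM in control, 0 and 21.1 under dexamethasone and 12.6 and 10.9 under dexamethasone + EPC-EVs. Rbbp5 had both dexamethasone libraries at 0, whereas in Prrx1 a single dexamethasone library was at 0 and the other was close to control.

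Gene counts of the same genes differed less between control and dexamethasone. Lrrfip1 was at 247 and 251 CPM in control, 229 and 214 under dexamethasone and 119 and 102 under dexamethasone + EPC-EVs. Tmem131 was at 268 and 278 CPM in control, 246 and 245 under dexamethasone and 186 and 206 under dexamethasone + EPC-EVs. Aspm was at 93.8 and 148 CPM in control, 113 and 114 under dexamethasone and 82.8 and 56.1 under dexamethasone + EPC-EVs. For these 3 genes control and dexamethasone lay close together, and for Aspm they overlapped. Eif5b was at 252 and 346 CPM in control, 176 and 186 under dexamethasone and 49.9 and 56.8 under dexamethasone + EPC-EVs. Rbbp5 was at 56.1 and 70.9 CPM in control, 58.9 and 71.0 under dexamethasone and 44.3 and 43.8 under dexamethasone + EPC-EVs. Eif5b was ordered control, dexamethasone, dexamethasone + EPC-EVs at the gene level, and Rbbp5 overlapped between control and dexamethasone.

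The second comparison asks what EPC-EVs changed in cells under dexamethasone; it shares the dexamethasone libraries with the first. With limma 0 of the 459 were called at an adjusted p under 0.05, and 0 of all 4799, or 0%, while 125, or 27.2%, had an unadjusted p under 0.05, beside 1143 of all tested, or 23.8%. Among the 88 of the 459 with a mean of at least 5 FPKM, tested with that filter, 14 were called, or 15.9%, with 1 higher and 13 lower, beside 107 of all 593 tested so, or 18.0%, with 20 higher and 87 lower; that fit has no median shift. After the median shift 1 of the 459 was called, or 0.218%, beside 1 of all 4799, or 0.0208%, and with all 6 libraries in 1 fit 1, or 0.218%, beside 4, or 0.0834%; all of these were lower. A call in one comparison and not in the other is no test of a difference between them. At the looser threshold 43 were higher and 73 lower, or 9.37% and 15.9%, beside 4.15% and 17.4% of all tested. After each library was shifted to the same median the split was 79 higher and 36 lower, or 17.2% and 7.84%, beside 11.4% and 6.40% of all tested, so its direction was not the same with and without that shift. The number past the threshold was 70 without dexamethasone + EPC-EVs replicate 1, with 32 higher and 38 lower, and 72 without dexamethasone + EPC-EVs replicate 2, with 36 and 36. Both libraries with EPC-EVs were above both dexamethasone libraries for 83, or 18.1%, and below for 167, or 36.4%, where the shares of all tested were 12.6% and 41.3%. The median difference was -0.40, with 164 higher and 292 lower, beside -0.52 over all 4799, -0.080 over Ensembl and -0.69 over single-exon assembled transcripts. With the medians shifted it was 0.24, with 264 higher and 195 lower. By exon number the unshifted medians were -0.68 for 2 exons, -0.38 for 3 to 9 and -0.17 for 10 or more.

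Among the higher values under dexamethasone + EPC-EVs, none called, 3 came from Pappa2, a secreted protease that cleaves insulin-like growth factor binding proteins. MSTRG.9724.6 was at 0.105 and 0.300 FPKM in control, 6.70 and 0.120 under dexamethasone and 43.8 and 52.0 under dexamethasone + EPC-EVs. MSTRG.9724.1 was at 1.04 and 1.19 FPKM in control, 0 and 2.48 under dexamethasone and 15.9 and 15.5 under dexamethasone + EPC-EVs. MSTRG.9724.4 was at 0 and 0 FPKM in control, 0 and 0 under dexamethasone and 5.44 and 6.39 under dexamethasone + EPC-EVs. In each both libraries with EPC-EVs lay above the other 4, and MSTRG.9724.4 was listed at 0 in all of those 4. Gene counts of Pappa2 were 211 and 319.6 CPM in control, 135 and 183 under dexamethasone and 836 and 959 under dexamethasone + EPC-EVs, with the same order. Its Ensembl transcripts together were instead highest in control, at 24.2 and 17.2 FPKM in control, 3.52 and 1.66 under dexamethasone and 5.79 and 7.58 under dexamethasone + EPC-EVs.

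Matrix and adhesion genes gave 2 more. MSTRG.4328.5 of Tns1, or tensin 1, which ties integrins to actin, was at 0 and 0 FPKM in control, 0.0538 and 0 under dexamethasone and 6.35 and 17.3 under dexamethasone + EPC-EVs. MSTRG.9808.2 of Tnn, the matrix protein tenascin N found around bone-forming cells, was at 0 and 0 FPKM in control, 0 and 0.0878 under dexamethasone and 2.78 and 21.6 under dexamethasone + EPC-EVs. Both were near 0 in the 4 libraries without EPC-EVs, and replicate 2 with EPC-EVs was the higher. Gene counts of Tns1 were 64.0 and 48.2 CPM in control, 93.1 and 78.9 under dexamethasone and 154 and 248 under dexamethasone + EPC-EVs. For Tnn they were 9.47 and 5.25 CPM in control, 5.16 and 13.5 under dexamethasone and 62.9 and 152 under dexamethasone + EPC-EVs. At the gene level both libraries with EPC-EVs were again above the other 4.

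The remaining 3 higher ones came from genes of other kinds. MSTRG.8344.3 of Shisa4, a small membrane protein, was at 0 and 0 FPKM in control, 0 and 0 under dexamethasone and 11.3 and 29.1 under dexamethasone + EPC-EVs. MSTRG.7117.3 of Slc35f5, a solute carrier, was at 0 and 0 FPKM in control, 0 and 0 under dexamethasone and 10.2 and 8.54 under dexamethasone + EPC-EVs. MSTRG.10367.5 of Scyl3, a kinase-like partner of ezrin, was at 0 and 0 FPKM in control, 0 and 0 under dexamethasone and 6.10 and 6.80 under dexamethasone + EPC-EVs. Each was listed at 0 in all 4 libraries without EPC-EVs. Gene counts of Shisa4 were 37.7 and 30.9 CPM in control, 61.4 and 52.0 under dexamethasone and 118 and 126 under dexamethasone + EPC-EVs. Those of Slc35f5 were 31.7 and 33.4 CPM in control, 35.5 and 33.2 under dexamethasone and 49.8 and 54.5 under dexamethasone + EPC-EVs. Those of Scyl3 were 41.6 and 39.0 CPM in control, 42.2 and 41.1 under dexamethasone and 40.7 and 35.9 under dexamethasone + EPC-EVs. The first 2 genes were highest with EPC-EVs in both libraries, while for Scyl3 both libraries with EPC-EVs were below both dexamethasone libraries, opposite to its assembled form, with control across that range.

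The lowest adjusted p of the second comparison among the 459 was 0.0672 in limma, for MSTRG.979.2 of Gm10925. That transcript had a difference of -7.50 ± 0.303 (moderated SE, n = 2 and 2) on the log2(FPKM + 1) scale. It was not called with any 1 library left out either, but it was called after the median shift, with all 6 libraries in 1 fit and with a mean of at least 5 FPKM, with adjusted p from 0.0111 to 0.252 over the 10 alternatives in limma. Next by size came MSTRG.978.1 of Gm10222, and then MSTRG.5012.4 and MSTRG.5012.5 of Ncl, whose values stand above. MSTRG.2777.5 of Casp8 and MSTRG.3184.1 of Raph1, high under dexamethasone, were also among the 8 largest lower values. MSTRG.2728.2 of Clk1, a kinase of splicing factors, was at 13.2 and 23.4 FPKM in control, 6.40 and 19.1 under dexamethasone and 0 and 0 under dexamethasone + EPC-EVs. MSTRG.7017.1 of Pign, an enzyme of GPI anchor synthesis, was at 4.05 and 18.1 FPKM in control, 6.75 and 14.2 under dexamethasone and 0 and 0 under dexamethasone + EPC-EVs. Both were listed above 0 in control and dexamethasone alike and at 0 with EPC-EVs. Gene counts of Clk1 were 162 and 237 CPM in control, 176 and 169.6 under dexamethasone and 73.6 and 94.5 under dexamethasone + EPC-EVs. Those of Pign were 75.9 and 88.6 CPM in control, 83.5 and 93.2 under dexamethasone and 47.6 and 49.8 under dexamethasone + EPC-EVs. Both genes were lowest with EPC-EVs.

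Each transcript was also set against the summed Ensembl transcripts of its gene name, as a difference of log2 values called the balance here, for 438 of the 459. That sum can move apart from the counts of the gene, as for Ptprn above. With limma 0 of the 438, or 0%, were called for dexamethasone against control, where 32, or 7.31%, had an unadjusted p under 0.05. With a difference beyond 1 as well, 19 were higher and 12 lower, or 4.34% and 2.74%. Without control replicate 1 the number called was 11, and without control replicate 2 it was 9. For dexamethasone + EPC-EVs against dexamethasone limma called 0, or 0%, and 77, or 17.6%, had an unadjusted p under 0.05, with 32 higher and 45 lower, or 7.31% and 10.3%, beyond a difference of 1. There the number called was 1 without dexamethasone replicate 1, 1 without dexamethasone replicate 2, 5 without dexamethasone + EPC-EVs replicate 1 and 2 without dexamethasone + EPC-EVs replicate 2. Median differences of the balance between groups were -0.19 and -0.25 in the 2 comparisons.

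The share of the gene's FPKM is given in percent, here of all transcripts of the gene name, single-exon assembled ones included. It and the balance need not agree where the Ensembl level is near 0 or far above the assembled form. Ptprn MSTRG.4442.3 held 0 and 0 percent in control, 78.7 and 83.8 under dexamethasone and 37.8 and 0 under dexamethasone + EPC-EVs. Map4k4 MSTRG.1757.20 held 0 and 0 percent in control, 36.6 and 37.4 under dexamethasone and 25.3 and 41.9 under dexamethasone + EPC-EVs. Ncl MSTRG.5012.4 held 0 and 0 percent in control, 36.2 and 44.7 under dexamethasone and 0.238 and 25.0 under dexamethasone + EPC-EVs. These 3 were listed at 0 in control and held a large share of their gene in both dexamethasone libraries. A listed 0 does not show that a form was absent, since forms of a gene share reads and the FPKM come without read counts. Casp8 MSTRG.2777.5 held 13.1 and 0 percent in control, 46.6 and 44.5 under dexamethasone and 0 and 0.473 under dexamethasone + EPC-EVs. Raph1 MSTRG.3184.1 held 0 and 0.0511 percent in control, 15.4 and 15.1 under dexamethasone and 0 and 5.00 under dexamethasone + EPC-EVs. Both shares were highest under dexamethasone and close to 0 in at least 1 library with EPC-EVs.

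On the lower side of the balance for dexamethasone, after Gm10925 MSTRG.979.2, stood 4 genes. Rbbp5 MSTRG.8003.5 held 25.5 and 47.2 percent in control, 0 and 0 under dexamethasone and 16.1 and 19.3 under dexamethasone + EPC-EVs. Tmem131 MSTRG.1523.5 held 23.6 and 34.7 percent in control, 1.82 and 0 under dexamethasone and 0 and 35.0 under dexamethasone + EPC-EVs. In both the share in each control library was above that in each dexamethasone library. MSTRG.10625.4 of Dcaf6, a substrate receptor of a ubiquitin ligase, was at 15.8 and 22.4 FPKM in control, 13.5 and 0 under dexamethasone and 0 and 0 under dexamethasone + EPC-EVs, and its gene counts were 88.6 and 104 CPM in control, 116 and 92.0 under dexamethasone and 103 and 116 under dexamethasone + EPC-EVs. MSTRG.3798.7 of Rpe, an epimerase of the pentose phosphate pathway, was at 5.40 and 4.56 FPKM in control, 0.0839 and 1.79 under dexamethasone and 0 and 0.133 under dexamethasone + EPC-EVs, and its gene counts were 21.2 and 20.8 CPM in control, 26.4 and 21.0 under dexamethasone and 20.2 and 22.4 under dexamethasone + EPC-EVs. Of the 4 libraries with dexamethasone only replicate 1 of the dexamethasone group was listed above 0 for the Dcaf6 form. Rpe had both control libraries above the other 4, while gene counts of both genes overlapped or lay close between control and dexamethasone.

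In the second comparison the largest shifts of the balance toward the assembled form were in Gm10925 MSTRG.979.1, Slc35f5, Shisa4, Scyl3 and Edem3. Gm10925 MSTRG.979.1 held 0.0182 and 55.8 percent in control, 0.0165 and 0.0192 under dexamethasone and 0.00732 and 94.1 under dexamethasone + EPC-EVs. Its share rose in replicate 2 with EPC-EVs alone and fell in replicate 1, where the lower Ensembl level and the added 1 raise the balance. Slc35f5 MSTRG.7117.3 held 0 and 0 percent in control, 0 and 0 under dexamethasone and 46.2 and 43.6 under dexamethasone + EPC-EVs. Shisa4 MSTRG.8344.3 held 0 and 0 percent in control, 0 and 0 under dexamethasone and 23.4 and 46.9 under dexamethasone + EPC-EVs. Scyl3 MSTRG.10367.5 held 0 and 0 percent in control, 0 and 0 under dexamethasone and 48.6 and 62.8 under dexamethasone + EPC-EVs. In all 3 the share was 0 in the 4 libraries without EPC-EVs. MSTRG.9070.3 of Edem3, a mannosidase that marks misfolded glycoproteins, was at 0 and 8.89 FPKM in control, 2.37 and 0 under dexamethasone and 6.83 and 9.38 under dexamethasone + EPC-EVs, and its gene counts were 116 and 155 CPM in control, 131 and 129 under dexamethasone and 112 and 142 under dexamethasone + EPC-EVs. Control replicate 2 had as much of it as the libraries with EPC-EVs, so that group did not stand apart from control. Toward the Ensembl forms the largest shifts were in Gm10222 MSTRG.978.1, Ptprn MSTRG.4442.3, Gm28439 MSTRG.981.1, Casp8 MSTRG.2777.5 and Fn1 MSTRG.3918.17. Gm28439 MSTRG.981.1 held 2.01 and 99.2 percent in control, 99.2 and 99.2 under dexamethasone and 99.0 and 12.2 under dexamethasone + EPC-EVs. Fn1 MSTRG.3918.17 held 31.2 and 8.42 percent in control, 40.0 and 32.3 under dexamethasone and 4.54 and 2.04 under dexamethasone + EPC-EVs. Replicates split widely for Gm28439, and for Fn1 control replicate 2 lay between the other control library and the libraries with EPC-EVs.

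Highest of all by mean FPKM was MSTRG.978.1 of Gm10222 (chr1:24558230-24612700, minus strand, 2 exons, 480 bases), at 4568 and 3434 FPKM in control, 2445 and 2396 under dexamethasone and 190.4 and 0 under dexamethasone + EPC-EVs. MSTRG.979.2 of Gm10925 (chr1:24611214-24614776, minus strand, 2 exons, 838 bases), the third by mean, was at 731 and 2592 FPKM in control, 499.5 and 374 under dexamethasone and 0.978 and 1.88 under dexamethasone + EPC-EVs. MSTRG.979.1 of Gm10925 (chr1:24559941-24614651, minus strand, 2 exons, 696 bases), the fourth, was at 1.18 and 3272 FPKM in control, 0.759 and 0.738 under dexamethasone and 0.0118 and 326 under dexamethasone + EPC-EVs. The first 2 were lowest with EPC-EVs, and the last was high in control replicate 2 and under dexamethasone + EPC-EVs replicate 2 alone. MSTRG.981.1 of Gm28439 (chr1:24611540-24649231, plus strand, 2 exons, 3955 bases), on the strand opposite to its annotated gene, was at 43.0 and 39.1 FPKM in control, 41.4 and 34.3 under dexamethasone and 4.96 and 6.35 under dexamethasone + EPC-EVs. It was level between control and dexamethasone and lower in both libraries with EPC-EVs.

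GENCODE vM21 lists these genes as unprocessed pseudogenes, and such copies of mitochondrial DNA are common in nuclear genomes. The annotated Gm10222 transcript (chr1:24612407-24612700, minus strand) was identical over its 294 bases to mt-Nd4l, a subunit of complex I, with 0 mismatches. Gm10925 (chr1:24613974-24614651, minus strand) was identical over 678 bases to mt-Atp6, a subunit of ATP synthase, and Gm28439 (chr1:24611535-24612410, minus strand) over 876 bases to mt-Nd4, another subunit of complex I. Over these bases sequence alone cannot tell a nuclear from a mitochondrial read, so how much of these levels is nuclear was not tested. The first 60 bases of Gm10925 and of mt-Atp6 are shown to make the identity visible, and capitals are absent because they would mark mismatches.
Gm10925, chr1:24614592-24614651, minus strand: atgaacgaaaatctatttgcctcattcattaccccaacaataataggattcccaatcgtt
mt-Atp6: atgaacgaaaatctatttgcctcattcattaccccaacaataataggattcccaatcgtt

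Gene counts of Gm10222 were 184 and 190.4 CPM in control, 100.2 and 102 under dexamethasone and 14.7 and 19.3 under dexamethasone + EPC-EVs. Those of Gm10925 were 859.8 and 1059 CPM in control, 488 and 413 under dexamethasone and 22.0 and 37.3 under dexamethasone + EPC-EVs. Those of Gm28439 were 535 and 593 CPM in control, 309.9 and 288 under dexamethasone and 3.96 and 5.76 under dexamethasone + EPC-EVs. All 3 were highest in control, lower under dexamethasone and lowest with EPC-EVs, without overlap. The mitochondrial genes mt-Nd4, mt-Atp6 and mt-Nd4l had the same order. For mt-Nd4 counts were 6440 and 6590 CPM in control, 3869 and 4101 under dexamethasone and 202 and 301 under dexamethasone + EPC-EVs. For mt-Atp6 they were 69.9 and 76.4, 37.2 and 39.7, and 1.555 and 2.655 CPM in these groups. For mt-Nd4l they were 20.9 and 19.2, 13.4 and 11.7, and 1.24 and 1.21 CPM. In every library mt-Nd4 lay above Gm28439, while mt-Atp6 lay below Gm10925 and mt-Nd4l below Gm10222. Between annotated and assembled forms the split was uneven: the Ensembl transcript of Gm10925 was at 5751 and 1.74 FPKM in control, 4092 and 3470 under dexamethasone and 159.5 and 18.6 under dexamethasone + EPC-EVs. In control replicate 2, where it was near 0, both assembled forms were at their highest.

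Fn1, which encodes the matrix protein fibronectin, gave 4 of the 10 highest. MSTRG.3918.9 (chr1:71585526-71653161, minus strand, 44 exons, 8655 bases), with both ends at annotated ends, was at 669 and 176 FPKM in control, 718 and 735 under dexamethasone and 1769 and 823 under dexamethasone + EPC-EVs. MSTRG.3918.17 (chr1:71600387-71641288, minus strand, 25 exons, 5009 bases) was at 662 and 110.5 FPKM in control, 819 and 722 under dexamethasone and 115 and 47.4 under dexamethasone + EPC-EVs. The long form was highest with EPC-EVs, and the 25-exon form was low there, with control replicate 2 below its partner in both. MSTRG.3918.11, with 9 exons, was at 213 and 58.0 FPKM in control, 107 and 173 under dexamethasone and 255 and 103 under dexamethasone + EPC-EVs. MSTRG.3918.12, with 18 exons, was at 108 and 66.9 FPKM in control, 75.8 and 122 under dexamethasone and 15.7 and 30.8 under dexamethasone + EPC-EVs. The 9-exon form overlapped across groups, and the 18-exon form was lowest in both libraries with EPC-EVs. Gene counts of Fn1 were 18935 and 16521 CPM in control, 19365 and 19355 under dexamethasone and 23141 and 19313 under dexamethasone + EPC-EVs, a narrow range beside that of its forms. The annotated transcript ENSMUST00000055226.12 was at 11.6 and 582 FPKM in control, 37.8 and 7.26 under dexamethasone and 13.7 and 120 under dexamethasone + EPC-EVs, highest in control replicate 2, where the long assembled form was lowest.

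Prrx1 gave 2 of the 10. MSTRG.10261.11 was at 80.8 and 3.13 FPKM in control, 110.1 and 108 under dexamethasone and 75.3 and 77.4 under dexamethasone + EPC-EVs. MSTRG.10261.9, with 6 exons, was at 148 and 50.8 FPKM in control, 86.9 and 0.547 under dexamethasone and 38.5 and 44.7 under dexamethasone + EPC-EVs. Each was low in a single library, control replicate 2 for the first and dexamethasone replicate 2 for the second, and otherwise the groups overlapped or lay close. The ninth of the 10 was MSTRG.5635.7 of Col6a3, an alpha chain of type VI collagen, at 49.99 and 38.7 FPKM in control, 50.2 and 16.7 under dexamethasone and 119 and 117 under dexamethasone + EPC-EVs. Both libraries with EPC-EVs lay above the other 4. Gene counts of Prrx1 were 2178 and 2690 CPM in control, 1932 and 2189 under dexamethasone and 1208 and 1100 under dexamethasone + EPC-EVs. Those of Col6a3 were 1914 and 1595 CPM in control, 2143 and 2075 under dexamethasone and 2825 and 2510 under dexamethasone + EPC-EVs. Prrx1 was lowest and Col6a3 highest with EPC-EVs.

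Transcripts of 9 gene lists are described by counts and medians of their log2 differences, beside medians over all 4799 transcripts of -0.023 for dexamethasone against control and -0.52 for EPC-EVs; medians after the median shift follow where they change sign. Of all 4799, 3.38% were higher and 3.02% lower past the looser threshold with dexamethasone, and 4.15% and 17.4% with EPC-EVs, so lower values past it with EPC-EVs are common in the whole table. In matrix and adhesion 9 of 17 genes had 24 transcripts, of which 21 were tested. None was called, the medians were 0.18 and -0.022, and the second was 0.62 after the shift. At the looser threshold 1 was higher and 0 lower with dexamethasone, and 4 were higher and 5 lower with EPC-EVs. MSTRG.2140.1 of Col5a2, a chain of type V collagen, was at 15.2 and 12.9 FPKM in control, 9.93 and 11.4 under dexamethasone and 2.38 and 1.57 under dexamethasone + EPC-EVs. MSTRG.5635.4 of Col6a3 was at 139.5 and 64.1 FPKM in control, 83.0 and 40.0 under dexamethasone and 9.90 and 15.7 under dexamethasone + EPC-EVs. Both were lowest with EPC-EVs although gene counts of Col5a2 were 579 and 583 CPM in control, 682 and 700.2 under dexamethasone and 1361 and 1061 under dexamethasone + EPC-EVs, highest there. MSTRG.3918.1 of Fn1, with 46 exons, was at 39.5 FPKM under dexamethasone + EPC-EVs replicate 1, at 0.000367 in replicate 2 and at 0 elsewhere. MSTRG.2067.10 of Col3a1, the chain of type III collagen, was at 12.3 and 74.9 FPKM in control, 12.6 and 0.145 under dexamethasone and 3.20 and 2.72 under dexamethasone + EPC-EVs. MSTRG.8205.1 of Prelp, a small proteoglycan, was at 0 and 19.0 FPKM in control, 0.0311 and 0 under dexamethasone and 0 and 0 under dexamethasone + EPC-EVs. In all 3 a single library was far above the rest. MSTRG.9156.5 of Lamc1, a laminin chain, was at 1.16 and 0 FPKM in control, 6.15 and 2.03 under dexamethasone and 1.98 and 0 under dexamethasone + EPC-EVs. MSTRG.9811.1 of Tnn was at 1.28 and 2.25 FPKM in control, 0.867 and 2.39 under dexamethasone and 2.84 and 4.66 under dexamethasone + EPC-EVs. MSTRG.3273.6 of Nrp2, a receptor for semaphorins and VEGF, was at 0 and 1.47 FPKM in control, 0 and 6.21 under dexamethasone and 0 and 0 under dexamethasone + EPC-EVs. Of these Tnn alone had both libraries with EPC-EVs above the other 4.

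Growth factor, hormone and hedgehog signalling had 11 transcripts in 4 of 18 genes, 7 of them tested and none called. Its medians were -0.29 and -0.41, the second being 0.23 after the shift, and 0 passed the looser threshold in either direction. MSTRG.9016.9 of Ptgs2, the inducible cyclooxygenase, was at 18.9 and 10.6 FPKM in control, 2.31 and 10.9 under dexamethasone and 5.32 and 6.79 under dexamethasone + EPC-EVs. MSTRG.4765.2 of Irs1, an adaptor of the insulin and IGF1 receptors, was at 6.36 and 34.3 FPKM in control, 2.96 and 4.86 under dexamethasone and 3.88 and 1.70 under dexamethasone + EPC-EVs. MSTRG.2934.4 of Bmpr2, a type II receptor for bone morphogenetic proteins, was at 3.35 and 0 FPKM in control, 2.73 and 6.50 under dexamethasone and 0.724 and 2.33 under dexamethasone + EPC-EVs. The Irs1 form was highest in control, mainly in replicate 2, and the others overlapped between control and dexamethasone. MSTRG.4320.9 of Stk36, a kinase of hedgehog signalling, was at 2.13 and 3.19 FPKM in control, 1.70 and 2.24 under dexamethasone and 0.770 and 0.212 under dexamethasone + EPC-EVs. Both libraries with EPC-EVs were below the other 4, while gene counts of Stk36, at 1.14 and 3.30 CPM in control, 8.81 and 3.04 under dexamethasone and 10.1 and 9.48 under dexamethasone + EPC-EVs, were highest with EPC-EVs. Those of Irs1 were 261 and 285 CPM in control, 232 and 262 under dexamethasone and 373 and 294 under dexamethasone + EPC-EVs, also highest with EPC-EVs.

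Lipid and small molecule metabolism had 9 transcripts in 5 of 9 genes, 6 of them tested and none called, with medians of -0.91 and -0.15, the second being 0.49 after the shift, and 0 past the looser threshold in either direction. MSTRG.3661.2 of Acadl, a mitochondrial acyl-CoA dehydrogenase, was at 7.94 and 5.15 FPKM in control, 1.76 and 4.27 under dexamethasone and 2.48 and 0.427 under dexamethasone + EPC-EVs. MSTRG.9508.2 of Soat1, which esterifies cholesterol, was at 4.35 and 1.48 FPKM in control, 2.79 and 3.60 under dexamethasone and 4.45 and 7.50 under dexamethasone + EPC-EVs. Acadl had both control libraries above both dexamethasone libraries, and Soat1 had both libraries with EPC-EVs above the other 4, in replicate 1 by little. Gene counts of Soat1 were 211 and 202 CPM in control, 229.8 and 192 under dexamethasone and 127 and 115 under dexamethasone + EPC-EVs, lowest with EPC-EVs, opposite to the form. Those of Acadl were 90.1 and 86.7 CPM in control, 59.8 and 90.0 under dexamethasone and 50.9 and 46.3 under dexamethasone + EPC-EVs, where control and dexamethasone overlapped. MSTRG.2384.5 of Hibch, an enzyme of valine breakdown, was at 0 and 9.51 FPKM in control, 0 and 0 under dexamethasone and 0.210 and 1.64 under dexamethasone + EPC-EVs. Most of it lay in control replicate 2.

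Apoptosis and chaperones had 5 transcripts in 4 of 7 genes, 3 of them tested and none called, with medians of 1.09 and -0.30, the second being 0.34 after the shift. The Casp8 form passed the looser threshold upward with dexamethasone and downward with EPC-EVs, 1 of 3 each time, and 0 passed it the other way. MSTRG.2561.2 of Hspd1, the mitochondrial chaperonin, was at 8.36 and 14.4 FPKM in control, 11.9 and 49.8 under dexamethasone and 24.5 and 32.2 under dexamethasone + EPC-EVs. MSTRG.6920.1 of Bcl2, which restrains apoptosis, was at 0.300 and 0.589 FPKM in control, 3.04 and 0.541 under dexamethasone and 2.27 and 0.249 under dexamethasone + EPC-EVs. Both overlapped between dexamethasone and each other group.

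RNA processing and translation had 12 transcripts in 7 of 12 genes, of which 10 were tested. Limma called 1, the Ncl form described above, with dexamethasone, and 0 with EPC-EVs. Its medians were 0.035 and -1.38, and -0.75 for the second after the shift, so the sign held. At the looser threshold 1 was higher and 1 lower with dexamethasone, and 0 were higher and 5 lower with EPC-EVs. MSTRG.2961.7 of Nop58, a core protein of box C/D snoRNPs, was at 5.67 and 2.94 FPKM in control, 1.94 and 3.23 under dexamethasone and 0.00148 and 0.135 under dexamethasone + EPC-EVs. MSTRG.9192.1 of Dhx9, an RNA helicase, was at 5.51 and 6.05 FPKM in control, 4.94 and 9.95 under dexamethasone and 3.41 and 2.48 under dexamethasone + EPC-EVs. MSTRG.2548.2 of Sf3b1, a subunit of the U2 snRNP, was at 10.1 and 0 FPKM in control, 3.84 and 3.65 under dexamethasone and 18.0 and 2.51 under dexamethasone + EPC-EVs. Nop58 and Dhx9 had both libraries with EPC-EVs below the other 4, and Sf3b1 overlapped across groups. Gene counts of Nop58 were 81.6 and 70.0 CPM in control, 57.0 and 64.8 under dexamethasone and 33.6 and 28.8 under dexamethasone + EPC-EVs, also lowest with EPC-EVs. Those of Dhx9 were 201 and 206 CPM in control, 177 and 169 under dexamethasone and 116 and 117 under dexamethasone + EPC-EVs, in the order control, dexamethasone, dexamethasone + EPC-EVs.

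The interferon and interleukin 1 response had 12 transcripts in 5 of 7 genes, 10 of them tested and none called. Its medians were -0.16 and -0.96, and -0.32 for the second after the shift. At the looser threshold 0 were higher and 1 lower with dexamethasone, and 0 were higher and 3 lower with EPC-EVs. MSTRG.1864.7 of Il1r1, the signalling receptor for interleukin 1, was at 8.67 and 7.22 FPKM in control, 4.72 and 4.16 under dexamethasone and 0.496 and 0.0601 under dexamethasone + EPC-EVs. MSTRG.1737.4 of Il1rl1, the receptor for interleukin 33, was at 47.5 and 1.84 FPKM in control, 8.48 and 24.8 under dexamethasone and 2.67 and 0.914 under dexamethasone + EPC-EVs. In the first the order was control, dexamethasone, dexamethasone + EPC-EVs without overlap, and in the second the control replicates lay far apart. MSTRG.5433.4 of Sp110, a nuclear body protein, was at 6.29 and 4.18 FPKM in control, 0 and 0.583 under dexamethasone and 0.651 and 0 under dexamethasone + EPC-EVs. Both control libraries were above the other 4. Gene counts of Il1rl1 were 433 and 340 CPM in control, 214 and 223 under dexamethasone and 81.9 and 68.6 under dexamethasone + EPC-EVs. Those of Il1r1 were 97.8 and 72.9 CPM in control, 63.3 and 63.7 under dexamethasone and 40.1 and 28.5 under dexamethasone + EPC-EVs. Those of Sp110 were 22.4 and 23.9 CPM in control, 17.6 and 19.2 under dexamethasone and 11.7 and 15.6 under dexamethasone + EPC-EVs. All 3 genes were in the order control, dexamethasone, dexamethasone + EPC-EVs.

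Actin, tubulin and filament genes had 15 transcripts in 3 of 6 genes, 12 of them tested and none called, with medians of 0.46 and -0.64, the second being 0.0014 after the shift. With dexamethasone 0 passed the looser threshold, and with EPC-EVs 1 was higher and 2 lower. MSTRG.4158.5 of Arpc2 was at 5.25 and 4.37 FPKM in control, 2.68 and 6.43 under dexamethasone and 2.12 and 1.79 under dexamethasone + EPC-EVs. MSTRG.9590.3 of Arpc5, like Arpc2 a subunit of the Arp2/3 complex, was at 3.85 and 4.09 FPKM in control, 8.34 and 5.80 under dexamethasone and 3.63 and 3.51 under dexamethasone + EPC-EVs. Both were lowest with EPC-EVs, and Arpc5 had both dexamethasone libraries above control. Gene counts of Arpc2 were 135 and 173 CPM in control, 139.6 and 145 under dexamethasone and 136 and 124 under dexamethasone + EPC-EVs. Those of Arpc5 were 107 and 95.0 CPM in control, 123 and 121 under dexamethasone and 117 and 98.2 under dexamethasone + EPC-EVs. Both genes overlapped between control and EPC-EVs, and Arpc5 was highest under dexamethasone. Iron genes had 2 transcripts in 1 of 3 genes, Steap3, a ferrireductase of the transferrin cycle, and 1 was tested, with differences of -1.29 and -0.49, the second being 0.15 after the shift, not called and 0 past the threshold. That one, MSTRG.6811.1, was at 3.32 and 4.73 FPKM in control, 0.9998 and 1.06 under dexamethasone and 0.472 and 0.415 under dexamethasone + EPC-EVs. The other, MSTRG.6795.4, was at 0 and 0 FPKM in control, 0.269 and 0.0139 under dexamethasone and 2.46 and 1.56 under dexamethasone + EPC-EVs. The tested form was highest in control and the other was highest with EPC-EVs, without overlap. Gene counts of Steap3 were 30.4 and 12.1 CPM in control, 46.9 and 32.2 under dexamethasone and 41.4 and 27.0 under dexamethasone + EPC-EVs. Both dexamethasone libraries lay above both control libraries, and the group with EPC-EVs overlapped each of the others. Cell cycle genes had 2 transcripts in 2 of 6 genes, both tested and not called, with medians of -1.45 and -0.24, the second being 0.40 after the shift; 1, that of Aspm, passed the threshold downward with dexamethasone and 0 did with EPC-EVs. MSTRG.8561.2 of Kif14, a mitotic kinesin, was at 1.71 and 2.84 FPKM in control, 3.52 and 1.18 under dexamethasone and 3.00 and 0.336 under dexamethasone + EPC-EVs. It overlapped across groups.

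The transcripts with the most exons were all from Dst, a gene whose plakin products link actin, microtubules and intermediate filaments. MSTRG.1460.1 (chr1:33907651-34308404, plus strand, 97 exons, 18476 bases) was at 2.60 and 3.82 FPKM in control, 3.82 and 2.91 under dexamethasone and 1.56 and 1.65 under dexamethasone + EPC-EVs. MSTRG.1460.6 (chr1:34005882-34308404, plus strand, 95 exons, 17565 bases) was at 2.72 and 0.132 FPKM in control, 4.49 and 3.07 under dexamethasone and 0.829 and 0.827 under dexamethasone + EPC-EVs. MSTRG.1460.11 (chr1:34011607-34307592, plus strand, 94 exons, 16727 bases) was at 12.2 and 0 FPKM in control, 4.95 and 7.73 under dexamethasone and 7.61 and 8.06 under dexamethasone + EPC-EVs. MSTRG.1460.4, tied with the last at 94 exons and 17445 bases long, was at 0 and 0 FPKM in control, 0 and 3.33 under dexamethasone and 10.5 and 8.06 under dexamethasone + EPC-EVs. It was highest with EPC-EVs and listed at 0 in control. MSTRG.1460.1 was lowest in both libraries with EPC-EVs, and MSTRG.1460.6 and MSTRG.1460.11 were at or near 0 in control replicate 2 and well above in replicate 1. Gene counts of Dst were 1008 and 1060 CPM in control, 981 and 966 under dexamethasone and 782 and 825 under dexamethasone + EPC-EVs, lowest with EPC-EVs.

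Where an assembled transcript shares both start and end with another transcript of its gene, the difference lies in the inner exons. There were 24 such pairs with 26 assembled transcripts, 13 of them differing by 1 exon, and 6 length differences equalled a single annotated exon or intron of the gene, 2 an exon and 4 an intron. The match is by length, since the table gives no exon coordinates, and the pairs below were chosen after their values were seen. MSTRG.2728.2 of Clk1 is 387 bases longer than ENSMUST00000034868.13 and has 1 exon fewer, which equals intron 4 of that transcript (chr1:58419734-58420120, minus strand). Retention of Clk1 introns is known as a way by which cells hold back its mRNA in the nucleus. The spliced transcript was at 13.2 and 10.6 FPKM in control, 18.8 and 24.0 under dexamethasone and 8.16 and 0 under dexamethasone + EPC-EVs. The longer one was listed above 0 in control and dexamethasone and at 0 in both libraries with EPC-EVs. There ENSMUST00000034868.13 was above 0 in replicate 1 alone, but other Ensembl transcripts of the same start and end also had values. With EPC-EVs, ENSMUST00000148330.7 was at 3.645 and 2.754 FPKM and ENSMUST00000151338.7 at 0 and 3.723. The intron has a length divisible by 3, a GC content of 26.4%, and begins with GT and ends with AG. Its boundaries are shown because they are the splice sites that the longer transcript would leave unused; capitals mark 20 bases of intron and lower case 20 bases of exon, from the GENCODE vM21 transcript ENSMUST00000129577.7, which holds the intron.
Clk1 intron 4, 5′ boundary: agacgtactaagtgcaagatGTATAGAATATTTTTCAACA
Clk1 intron 4, 3′ boundary: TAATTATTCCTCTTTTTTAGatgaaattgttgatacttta

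Cassette exons accounted for 2 pairs. MSTRG.5649.5 of Lrrfip1 is 72 bases shorter than ENSMUST00000068116.12, the length of its exon 5 of 13 (chr1:91103247-91103318, plus strand), a coding exon whose length is divisible by 3. The form without it was at 3.29 and 8.44 FPKM in control, 9.27 and 1.79 under dexamethasone and 1.44 and 2.33 under dexamethasone + EPC-EVs. The form with it was at 7.13 and 3.80 FPKM in control, 5.08 and 8.50 under dexamethasone and 2.58 and 1.42 under dexamethasone + EPC-EVs. Replicates split in opposite ways between the forms, and control and dexamethasone overlapped in both. In Agap1, which encodes a GTPase-activating protein of Arf proteins, MSTRG.6058.5 is 159 bases longer than MSTRG.6058.6, the length of a coding exon at chr1:89766306-89766464 on the plus strand, again divisible by 3. The form with the exon was at 0.0927 and 0 FPKM in control, 8.54 and 2.15 under dexamethasone and 1.29 and 4.20 under dexamethasone + EPC-EVs. The form without it was at 0 and 0 FPKM in control, 6.67 and 1.15 under dexamethasone and 0.807 and 1.45 under dexamethasone + EPC-EVs. Both were listed at or near 0 in control and above 0 in all 4 other libraries, with more of the form with the exon in each. The exons are shown in capitals, with 20 bases of the neighbouring exons on each side in lower case, because they are the sequence by which the forms of each gene would differ.
Lrrfip1 exon 5: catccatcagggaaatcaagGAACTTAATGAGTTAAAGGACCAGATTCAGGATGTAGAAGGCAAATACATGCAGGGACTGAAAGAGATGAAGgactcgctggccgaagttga
Agap1 exon: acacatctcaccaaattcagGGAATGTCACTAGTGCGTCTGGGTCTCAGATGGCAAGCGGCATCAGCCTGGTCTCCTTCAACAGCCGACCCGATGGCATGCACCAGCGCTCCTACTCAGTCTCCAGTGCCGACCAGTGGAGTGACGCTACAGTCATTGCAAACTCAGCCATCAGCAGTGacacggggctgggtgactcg

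Ptgs2 and Ptma gave the other intron matches. MSTRG.9016.1 of Ptgs2, with 9 exons, is 167 bases longer than the 10-exon ENSMUST00000035065.8, the length of its intron 7 (chr1:150104116-150104282, plus strand). It was at 5.38 and 4.75 FPKM in control, 7.65 and 1.33 under dexamethasone and 1.84 and 1.04 under dexamethasone + EPC-EVs. MSTRG.9016.2, of the same start and end but 3 exons, is 2149 bases longer, a length that 1 set of 7 introns of the Ensembl transcript gives, and was at 0.196 and 0.414 FPKM in control, 0.555 and 0.646 under dexamethasone and 3.998 and 1.67 under dexamethasone + EPC-EVs. The fully spliced transcript was at 7.48 and 1.36 FPKM in control, 7.06 and 4.51 under dexamethasone and 2.12 and 1.64 under dexamethasone + EPC-EVs. The 3-exon form was highest in both libraries with EPC-EVs, where the spliced form was below both dexamethasone libraries. Gene counts of Ptgs2 were 194 and 176 CPM in control, 132 and 109 under dexamethasone and 129 and 87.6 under dexamethasone + EPC-EVs, which overlapped between dexamethasone and dexamethasone + EPC-EVs.

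In Ptma, which encodes the small acidic nuclear protein prothymosin alpha, MSTRG.5026.5 is 2222 bases longer than ENSMUST00000188533.1, the length of intron 1 (chr1:86526951-86529172, plus strand). It was at 1.85 and 0.418 FPKM in control, 1.15 and 2.38 under dexamethasone and 2.91 and 1.43 under dexamethasone + EPC-EVs. The spliced form was at 63.8 and 77.2 FPKM in control, 61.0 and 71.4 under dexamethasone and 27.9 and 17.4 under dexamethasone + EPC-EVs. The spliced form was lowest with EPC-EVs, and the longer form overlapped across all groups at a small part of its level.

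For 20 of the 612 no gene name was given, and all 20 overlapped no annotated gene of GENCODE vM21 on either strand. MSTRG.10264.2 (chr1:163243824-163244366, minus strand, 2 exons, 503 bases), highest by mean, was at 0 and 17.4 FPKM in control, 13.1 and 7.53 under dexamethasone and 1.85 and 0.897 under dexamethasone + EPC-EVs. MSTRG.8466.1 (chr1:135764290-135765752, plus strand, 2 exons, 1261 bases) was at 2.89 and 4.01 FPKM in control, 4.79 and 5.05 under dexamethasone and 2.15 and 0.529 under dexamethasone + EPC-EVs. MSTRG.8462.2 (chr1:135760276-135761137, plus strand, 2 exons, 727 bases) was at 0.155 and 9.68 FPKM in control, 1.42 and 3.35 under dexamethasone and 0.909 and 0 under dexamethasone + EPC-EVs. The libraries with EPC-EVs were lowest for MSTRG.8466.1 and, save for a control library at or near 0, for the other 2. MSTRG.8186.1 (chr1:133977462-133980309, plus strand, 2 exons, 386 bases) was at 5.39 and 0 FPKM in control, 3.58 and 1.17 under dexamethasone and 1.15 and 0.806 under dexamethasone + EPC-EVs. MSTRG.7842.1 (chr1:132293650-132297437, plus strand, 2 exons, 646 bases) was at 0.699 and 0.749 FPKM in control, 2.84 and 1.47 under dexamethasone and 3.26 and 1.40 under dexamethasone + EPC-EVs. For MSTRG.8186.1 control overlapped both other groups, and for MSTRG.7842.1 both control libraries were below the other 4.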

How the data were processed

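The authors aligned reads with HISAT2 on GRCm38. The deposited gene table gives whole-number counts per gene from HTSeq 0.6.1, and the deposited transcript table gives FPKM from StringTie; both were used as the authors made them. The 6 gene-level FPKM columns were not used. Libraries were grouped by treatment, with 2 in each of 3 groups. Values of log2(FPKM + 1) of the 4799 transcripts with a mean of at least 1 FPKM were fitted with limma 3.58.1 (lmFit, eBayes with trend) in R 4.3.3, with Benjamini-Hochberg adjustment over all of them and a call at an adjusted p under 0.05. The looser threshold follows the methods of the study for mRNA, on another fit. On simulated data the fit recovered most of the largest changes put in and none of the smallest. Balance is log2(FPKM + 1) of a transcript minus that of the summed Ensembl transcripts of its gene name, adjusted over 438. CPM is a count over the library total. Annotation and sequences are from GENCODE vM21.

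Named transcripts are the 10 highest by mean FPKM, in each comparison the 8 largest higher and lower values and the 5 largest higher and lower balances (called ones first, then others, groups not overlapping, at least 2 FPKM in the higher group for all), the 3 with the most exons, the 5 highest without a gene name, and transcripts of the 9 gene lists. The transcripts and lists were chosen with earlier results of these data known. List examples and the pairs of transcripts were chosen after values were seen. One gene of the lists enters their counts and medians but is not reported here by itself.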

Additional observations from a re-analysis of the deposited data

How the results depend on the processing

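Counts of transcripts called and past the looser threshold were repeated under the alternatives below, the balance without the median shift; counts above 0 were repeated at 0.1 and 1 FPKM, and non-overlap counts and shares of a gene were not repeated. For transcripts called with dexamethasone, 2 as reported, the count was 0 with a pseudocount of 0.1, 0 without a filter, 4 with a mean of at least 5 FPKM, 3 after the median shift, 1 with all 6 libraries in 1 fit, 0 with the replicate block, and from 0 to 0 with each library left out. For EPC-EVs, 0 as reported in limma with 125 at an unadjusted p under 0.05, the count was 14 with a mean of at least 5 FPKM, 1 after the median shift and 1 with all 6 libraries; it was 0 otherwise. For the balance with dexamethasone, 0 as reported in limma with 32 at an unadjusted p under 0.05, it was 4 with a mean of at least 5 FPKM, 1 with all 6 libraries and from 0 to 11 with each library left out. For the balance with EPC-EVs it was from 1 to 5 with each library left out and 0 otherwise. At the looser threshold, 38 and 116 as reported, the counts were 10 and 31 with a mean of at least 5 FPKM, where fewer transcripts enter, from 49 to 77 and from 70 to 134 with each library left out, and 37 and 107 with the replicate block. With a minimum of 1 FPKM in place of any value above 0, 311 and 291 transcripts remained under dexamethasone + EPC-EVs, beside 505 and 498. Except where fewer transcripts enter, the cause was not tested.

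For MSTRG.1757.20 of Map4k4 the difference ranged from 5.95 to 9.35 over 10 alternatives, with adjusted p in limma from 0.00845 to 0.297 and a call in 3 of them. For MSTRG.5012.4 of Ncl it ranged from 5.69 to 9.09, with adjusted p in limma from 0.0161 to 0.297 and a call in 2. For MSTRG.979.2 of Gm10925 it ranged from -8.21 to -6.86, with a call in 3. None of these 3 differences changed sign. The split at the looser threshold did turn, from 43 higher and 73 lower to 79 and 36 after the median shift with EPC-EVs, and from 25 higher and 13 lower to 25 and 31 without control replicate 2 with dexamethasone. The replicate block was fitted because the titles number the replicates; deviations of libraries with the same number correlated at -0.00156 and -0.00211 over 4799 transcripts, which are not independent. Where a library is left out, the lone one is assumed to vary like the others. With 2 libraries a group, FPKM without counts behind them give no depth for a single transcript, and forms of a gene share reads.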

Other observations

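In 2 other genes with several assembled forms, outside the rule for naming and chosen after their values were seen, levels also differed between forms. In Prrc2c, a large RNA-associated protein, the 35-exon MSTRG.10219.6 was at 30.8 and 36.7 FPKM in control, 79.1 and 77.3 under dexamethasone and 34.8 and 58.6 under dexamethasone + EPC-EVs. The 12-exon MSTRG.10219.11 was at 30.7 and 43.9 FPKM in control, 13.9 and 26.2 under dexamethasone and 2.94 and 4.90 under dexamethasone + EPC-EVs. The long form was highest in both dexamethasone libraries, and the short one was highest in control and lowest in both libraries with EPC-EVs. In Trip12 MSTRG.4921.8, with 39 exons, was at 5.75 and 2.87 FPKM in control, 10.7 and 11.2 under dexamethasone and 9.89 and 12.7 under dexamethasone + EPC-EVs. The 5-exon MSTRG.4921.26 was at 1.28 and 1.71 FPKM in control, 3.74 and 3.20 under dexamethasone and 18.7 and 5.25 under dexamethasone + EPC-EVs. Control was the lowest group for both, and the short form was highest with EPC-EVs.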
